A study of Mus musculus with 6 samples.

Results

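The DNA replication and G1/S genes examined here are 40 genes that load, start and run the replication machinery, chosen by symbol from a list of genes described as driven by E2F transcription factors. All 40 symbols were found among the 24421 gene symbols of the count table, and all 40 were among the 15584 genes tested. They were read in heads of E9.0 mouse embryos, in 3 WT libraries and 3 libraries labelled Het.

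In G1, the origin recognition complex, CDC6 and CDT1 load the MCM2-7 helicase onto origins of replication. At the G1/S transition, cyclin E and its kinase partner help to inactivate the retinoblastoma proteins, which releases E2F activators to switch on genes for replication and nucleotide synthesis, and CDC45 and GINS then turn the loaded helicase into an active one. P53 can slow this step through CDKN1A (p21), an inhibitor of cyclin-dependent kinases, and the DREAM complex, which contains repressor E2Fs and retinoblastoma-like proteins, then keeps many of these genes low. Neuroepithelium and neural crest of the early embryonic head are made of dividing cells.

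Het embryos, labelled SnrpB+/-, carried *Snrpb loxP/+* and the *Wnt1-Cre2* transgene by the study's methods, and the WT group was *Snrpb +/+* by its labels, which do not say whether those embryos carried the transgene. *Snrpb* encodes the SmB/B′ proteins of the spliceosome core. The *Wnt1-Cre2* transgene acts in the neural tube and its crest, so other cells of a mutant head keep both copies of *Snrpb*, and the whole head was sequenced. Each library was a pool of 2 heads matched for somite number and taken from different litters, on a mixed CD1 and C57BL/6J background by the study's methods. Libraries were strand-specific and ribosomal RNA was removed first. *P*-values below measure the spread between such pools.

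Reads counted per library ranged from 36378803 to 74909774, and the 40 genes took 0.781% to 0.812% of them. Single-gene counts of the set ran from 543 to 53655 per library, and the CV between WT pools had a median of 4.09% over the 40 genes. *Snrpb* itself did not separate the groups: its level was 430, 438 and 414 CPM (counts per 1000000 counted reads) in WT and 436, 412 and 430 CPM in Het-labelled libraries, with a log2 fold change of -0.0036 ± 0.0393 (SE, edgeR adjusted *P* = 0.99). Reads from exons outside the deleted stretch also enter that count, and the directions given below rest on the labels. Markers fixed for the head were present in all libraries: the summed level of 10 brain and midbrain genes was 407 to 499 CPM and that of 6 neural crest genes was 245 to 320 CPM, with no gene of either list at 0. The library WT 1 stood apart in its visceral endoderm genes, which summed to 32.05 CPM there and to 6.54 to 8.53 CPM in the other libraries, and the summed cardiac genes ranged from 4.17 to 31.2 CPM in WT and from 14.4 to 51.6 CPM in Het-labelled libraries. Erythroid genes overlapped between groups, at 877 to 1490 CPM in WT and 887 to 1211 CPM in Het-labelled libraries, and 8 posterior *Hox* genes summed to 0.12 to 1.56 CPM. The part of these other cells in the results below was not tested. In bulk heads, fewer dividing cells and less RNA per dividing cell cannot be told apart.

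The promoters show what the set was chosen for. Windows of 300 bases, 250 before and 50 from the start site, were found in RefSeq (GRCm38.p6) for 32 of the 40 genes, and they were searched on both strands for 4 forms of the E2F site (TTTCCCGC, TTTGGCGC, TTTCGCGC and TTTGCCGC, which may overlap each other). At least 1 site lay in the windows of 14 of these 32 genes (43.8%), against 2.6% of the 27025 genes with a window. Because the genes were picked as E2F-driven, that share describes the choice. In 10 of the genes a site lay before the start site. The stretches below show some of these 10, with the E2F sites in capitals, each read 5′ to 3′ on the strand of its gene. The first 5 belong to helicase loading genes, and those of *Mcm5* and *Mcm6* hold a pair of overlapping sites that face each other. A gene with windows at more than 1 start site was counted if any of them held a site. Among the genes shown, *Uhrf1* and *Mcm7* each have another window without a site, at chr17:56303087-56303386 and chr5:138171217-138171516.
Mcm5, chr8:75109330-75109393 (+): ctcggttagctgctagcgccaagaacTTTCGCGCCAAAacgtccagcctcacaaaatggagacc
Mcm6, chr1:128359778-128359841 (-): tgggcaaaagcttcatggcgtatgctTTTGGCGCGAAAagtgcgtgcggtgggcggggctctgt
Mcm7, chr5:138172015-138172074 (-): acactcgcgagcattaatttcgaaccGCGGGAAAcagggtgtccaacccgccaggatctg
Orc1, chr4:108579401-108579453 (+): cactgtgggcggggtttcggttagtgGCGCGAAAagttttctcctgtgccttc
Cdc6, chr11:98907987-98908046 (+): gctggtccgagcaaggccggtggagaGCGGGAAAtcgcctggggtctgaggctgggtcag
Pola1, chrX:93632260-93632319 (-): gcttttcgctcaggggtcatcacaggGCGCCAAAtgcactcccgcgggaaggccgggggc
Uhrf1, chr17:56304102-56304161 (+): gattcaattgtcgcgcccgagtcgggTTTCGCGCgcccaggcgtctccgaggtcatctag
E2f7, chr10:110745215-110745274 (+): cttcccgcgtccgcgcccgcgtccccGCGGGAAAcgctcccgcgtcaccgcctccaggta

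Sites were most frequent in the helicase loading genes, with 7 of 9 windows, and were found in 0 of the 4 nucleotide synthesis genes. The 100 bases before the start sites of *Tk1* and *Rrm1* are shown for contrast. These genes were picked after their values were seen, for a low fold change and no site in the window. Both stretches hold none of the 4 forms, which says only that these letters are not in the window. Of the other genes lower at an unadjusted *P* under 0.05 (below), *Pola1* has a site and *Pola2* has none. *Pole* and *Prim2* have no window here. A link between sites and fold changes was not tested.
Tk1, chr11:117826015-117826114 (-): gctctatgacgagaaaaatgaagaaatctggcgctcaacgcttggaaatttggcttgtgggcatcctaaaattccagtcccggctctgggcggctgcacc
Rrm1, chr7:102441595-102441694 (+): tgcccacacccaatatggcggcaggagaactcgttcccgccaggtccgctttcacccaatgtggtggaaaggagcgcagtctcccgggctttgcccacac

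The CHR element (TTTGAA or TTCGAA, both strands), through which DREAM holds down genes of G2 and mitosis, was found in 7 of the 32 windows (21.9%), near the 21.7% of all genes with a window. In a list of 25 G2/M genes, 17 of 21 windows (81%) held a CHR element and 1 held an E2F site. The log2 fold changes between genotypes had a median of -0.0304 in the 14 genes with an E2F site and of -0.0164 in the 18 genes with a window and no site.

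No gene of the set passed an adjusted *P* of 0.05 with edgeR's quasi-likelihood test, where 1 of the 15584 genes (0.00642%) did, and none passed with DESeq2, where 84 of 12908 genes with an adjusted *P* (0.651%) did. The smallest adjusted *P* of the set was 0.42 with edgeR and 0.0837 with DESeq2, both for *Tk1*. At an unadjusted *P* under 0.05, 6 of the 40 genes (15%) were lower in Het-labelled libraries, beside 4.09% of all genes tested, and 0 were higher, beside 4.34%. DESeq2 gave the same 6 lower and 0 higher at its unadjusted *P*, beside 2.92% lower and 2.27% higher of the 21083 genes in that fit. Those genes include ones of low count that edgeR left out, so the shares of the DESeq2 and edgeR fits are not over the same genes. The 6 were *Tk1*, *Rrm1*, *Pole*, *Pola1*, *Pola2* and *Prim2*, and their products act in the supply of deoxynucleotides or are subunits of DNA polymerases and primase. In mm10 they lie at chr11:117815526-117826092 (*Tk1*), chr7:102441695-102469771 (*Rrm1*), chr5:110286306-110337474 (*Pole*), chrX:93304767-93632155 (*Pola1*), chr19:5940542-5964202 (*Pola2*) and chr1:33453810-33669795 (*Prim2*) by Gencode M21. With the level of 4 Y-linked genes in the model, which summed to 62.8 to 120 CPM in WT and 111 to 228 CPM in Het-labelled libraries, 1 of the 6 (*Tk1*, -0.26) was lower at an unadjusted *P* under 0.05, and only 1.52% of all genes tested were. The others then had log2 fold changes of -0.14 (*Pola2*), -0.12 (*Pola1*), -0.12 (*Pole*), -0.094 (*Prim2*) and -0.079 (*Rrm1*). In 12 of the 40 genes (30%) every Het-labelled library lay below every WT library, beside 6.92% of all genes tested, and in 1 (*Rfc3*) every one lay above, beside 8.32%.

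The differences were small. Log2 fold changes of the 40 genes lay between -0.21 (*Tk1*) and 0.06 (*Tyms*), with a median of -0.023, whereas the median of all genes tested was 0.0004 and their 5th and 95th percentiles were -0.254 and 0.435. Of the 40, 30 were below 0 (75%, against 49.8% of all genes tested) and 31 lay within 0.1 of 0. The genes were measured tightly, with a median SE of 0.0447 on the log2 scale against 0.0869 over all genes tested. For 35 of the 40 genes the 95% interval lay wholly between -0.25 and 0.25. Summed over the set, the level was 8113, 8135 and 7911 CPM in WT and 7876, 7714 and 7809 CPM in Het-labelled libraries. These sums did not overlap, by a small margin, and the Het mean was 96.9% of the WT mean. The median over the 40 genes of log2 CPM minus the gene's mean did overlap, with Het 1 (-3.2e-05) above WT 3 (-0.00105). The share of counted reads in the set overlapped too, at 0.7836% in WT 3 and 0.7845% in Het 1. Leaving out WT 1, the library with more visceral endoderm RNA, gave 7 lower genes, the same 6 and *Cdc45*, and a median of -0.038. Of all genes tested, 4.5% were lower in that fit. The median was -0.0456 without WT 3, -0.0411 without Het 1, -0.0155 without WT 2 and -0.057 with the Y-linked genes in the model. With scaling by library size alone it was -0.0118, where the median of all genes tested was 0.012. The number of genes below 0 was 27 under that scaling, 23 without WT 2 and 34 with the Y-linked genes in the model.

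**Figure D1:**
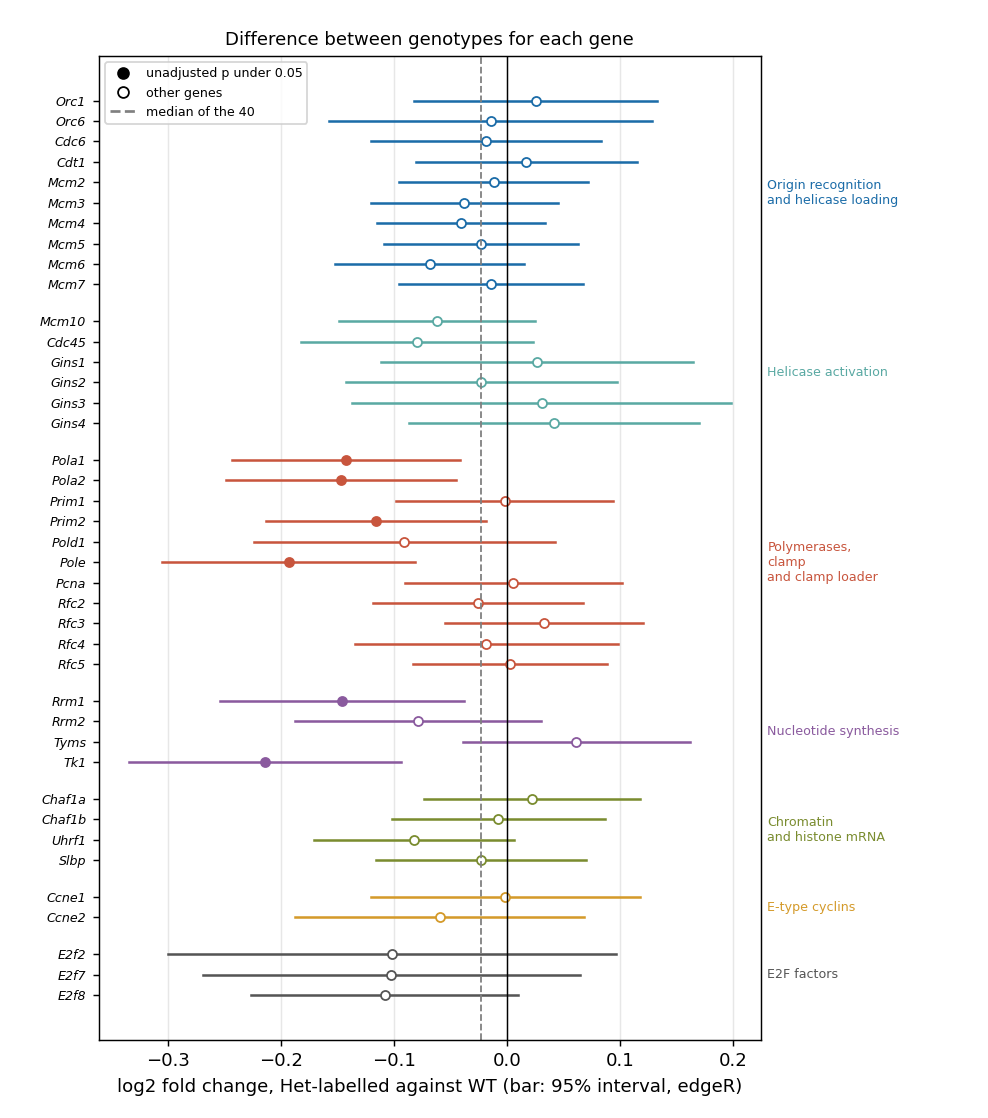
Log2 fold change of each of the 40 genes, Het-labelled against WT, with its 95% interval from edgeR, grouped by role. Filled points are the 6 genes at an unadjusted P under 0.05, all left of 0, and the dashed line is the median of the 40 genes (-0.023).

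Of the 10 genes of origin recognition and helicase loading, 0 passed an unadjusted *P* of 0.05, every log2 fold change lay within 0.1 of 0, and the median was -0.017. *Mcm2*, a helicase subunit used as a marker of cycling cells, was at 458, 453 and 432 CPM in WT and 441, 442 and 449 CPM in Het-labelled libraries. The values overlapped, and the log2 fold change was -0.012 (SE 0.0368, 95% interval -0.10 to 0.07, adjusted *P* = 0.948 in edgeR). *Mcm6*, the lowest of the group, was at 581, 603 and 572 CPM in WT and 569, 546 and 560 CPM in Het-labelled libraries. Every Het-labelled library lay below WT by a small margin, with a log2 fold change of -0.068 (SE 0.0369, adjusted *P* = 0.658). *Orc1*, the largest subunit of the origin recognition complex and the highest of the group in fold change, was at 59.6, 58.4 and 59.5 CPM in WT and 61.6, 61.7 and 57.3 CPM in Het-labelled libraries, and the groups overlapped (0.025, SE 0.0474, adjusted *P* = 0.906). The other helicase subunits had log2 fold changes of -0.038 for *Mcm3* (SE 0.0367, adjusted *P* = 0.813), -0.041 for *Mcm4* (SE 0.033, adjusted *P* = 0.769), -0.023 for *Mcm5* (SE 0.0381, adjusted *P* = 0.894) and -0.014 for *Mcm7* (SE 0.0361, adjusted *P* = 0.933). The 6 subunits of the MCM2-7 ring lay between -0.068 and -0.012, but *Mcm2* was at 0.00089 without WT 1 and *Mcm7* at 0.0021 without WT 2 and 0.0044 without Het 2. The remaining loaders overlapped between groups, at -0.015 for *Orc6* (SE 0.0631, adjusted *P* = 0.967), -0.019 for the loader *Cdc6* (SE 0.0448, adjusted *P* = 0.928) and 0.017 for *Cdt1* (SE 0.0431, adjusted *P* = 0.933).

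Genes whose products activate the helicase were on both sides of 0, with 3 of 6 above and 0 past an unadjusted *P* of 0.05. *Cdc45*, a part of the active helicase, was at 78.9, 85.8 and 81.0 CPM in WT and 76.3, 78.0 and 78.3 CPM in Het-labelled libraries. Its groups did not overlap but lay close, at a log2 fold change of -0.08 (SE 0.0454, adjusted *P* = 0.672). *Gins4*, a subunit of the GINS tetramer, was at 59.1, 66.2 and 66.2 CPM in WT and 68.2, 64.1 and 65.015 CPM in Het-labelled libraries. These values overlapped, at 0.041 (SE 0.0567, adjusted *P* = 0.874). The other GINS subunits were at 0.026 for *Gins1* (SE 0.0609, adjusted *P* = 0.925), -0.023 for *Gins2* (SE 0.053, adjusted *P* = 0.926) and 0.031 for *Gins3* (SE 0.074, adjusted *P* = 0.929), and *Mcm10*, which helps to start the fork, was at -0.062 (SE 0.0384, adjusted *P* = 0.69). In the *Gins2* transcript 70.7% of exon bases are shared with *Gse1* on the opposite strand, and whether reads were counted by strand is not given, so its count may include reads of that gene.

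Of the 11 genes for polymerases, clamp and clamp loader, 4 (36.4%) were lower at an unadjusted *P* under 0.05, beside 4.09% of all genes tested. In the same group 0 were higher, beside 4.34%. All 4 are polymerase or primase subunits, a description made after they were seen. *Prim1* and *Pold1* did not pass, nor did the polymerase subunits in the list of other replication genes below. *Pole*, the catalytic subunit of the leading-strand polymerase epsilon, was at 167, 155 and 167 CPM in WT and 136, 143 and 149 CPM in Het-labelled libraries. All Het-labelled values lay below all WT values, a log2 fold change of -0.19 (95% interval -0.31 to -0.08, adjusted *P* = 0.422 in edgeR) or 12.5% less. *Pola1*, the catalytic subunit of polymerase alpha, which extends the RNA primer, was at 152, 155 and 164 CPM in WT and 138, 147 and 141 CPM in Het-labelled libraries. Its groups did not overlap (-0.14, 95% interval -0.24 to -0.04, adjusted *P* = 0.437). *Pola2*, the accessory subunit of the same enzyme, was at 102, 94.4 and 96.8 CPM in WT and 90.7, 86.4 and 87.9 CPM in Het-labelled libraries. It too was separate between groups (-0.15, 95% interval -0.25 to -0.05, adjusted *P* = 0.437). *Prim2*, the large primase subunit, was at 77.4, 78.6 and 81.4 CPM in WT and 75.1, 72.0 and 72.0 CPM in Het-labelled libraries, again without overlap (-0.12, 95% interval -0.21 to -0.02, adjusted *P* = 0.506).

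*Prim1*, the catalytic primase subunit and the fourth member of the polymerase alpha-primase complex, was at 78.8, 81.7 and 83.4 CPM in WT and 82.0, 82.3 and 79.2 CPM in Het-labelled libraries. Its groups overlapped, and its log2 fold change was -0.0019 (SE 0.0424, 95% interval -0.10 to 0.09, adjusted *P* = 0.995). The intervals of *Prim1* and of the other 3 subunits overlap, and a difference between subunits was not tested. *Pold1*, the catalytic subunit of polymerase delta, was at -0.091 (SE 0.0589, adjusted *P* = 0.7). The clamp and its loader stood near 0. *Pcna*, which holds the polymerases on DNA and serves as a usual marker of S phase, was at 413, 452 and 435 CPM in WT and 447, 429 and 430 CPM in Het-labelled libraries, which overlapped at 0.0056 (SE 0.0426, 95% interval -0.09 to 0.10, adjusted *P* = 0.983). *Rfc3*, a subunit of the clamp loader, was at 86.2, 88.6 and 87.8 CPM in WT and 91.4, 88.8 and 88.6 CPM in Het-labelled libraries. Every Het-labelled value was above WT, the lowest by less than 0.1 CPM, at 0.033 (SE 0.0387, adjusted *P* = 0.855). The other loader subunits were at -0.025 for *Rfc2* (SE 0.0411, adjusted *P* = 0.893), -0.018 for *Rfc4* (SE 0.0516, adjusted *P* = 0.943) and 0.0025 for *Rfc5* (SE 0.0378, adjusted *P* = 0.994).

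Among the genes for nucleotide synthesis, *Tk1*, thymidine kinase of the salvage pathway, had the lowest fold change of the 40. It was at 73.4, 68.4 and 66.1 CPM in WT and 62.1, 59.1 and 58.1 CPM in Het-labelled libraries. The groups did not overlap, and the level was 13.8% less (log2 fold change -0.21, 95% interval -0.33 to -0.09, adjusted *P* = 0.42 in edgeR and 0.0837 in DESeq2). *Rrm1*, the large subunit of ribonucleotide reductase, was at 369, 356 and 367 CPM in WT and 311, 325 and 350 CPM in Het-labelled libraries. Het 3 came close to WT, but no value overlapped (-0.15, 95% interval -0.25 to -0.04, adjusted *P* = 0.454). *Rrm2*, the small subunit of that enzyme, overlapped between groups at -0.079 (SE 0.0479, adjusted *P* = 0.685). *Tyms*, thymidylate synthase, had the highest fold change of the set and was at 115, 116 and 119 CPM in WT and 121, 116 and 127 CPM in Het-labelled libraries, again overlapping (0.061, SE 0.0443, adjusted *P* = 0.736). The summed level of the 4 nucleotide genes in Het-labelled libraries was 93.7% of WT, from 991 to 1055 CPM in WT and from 936 to 987 CPM in Het-labelled libraries.

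**Figure D2:**
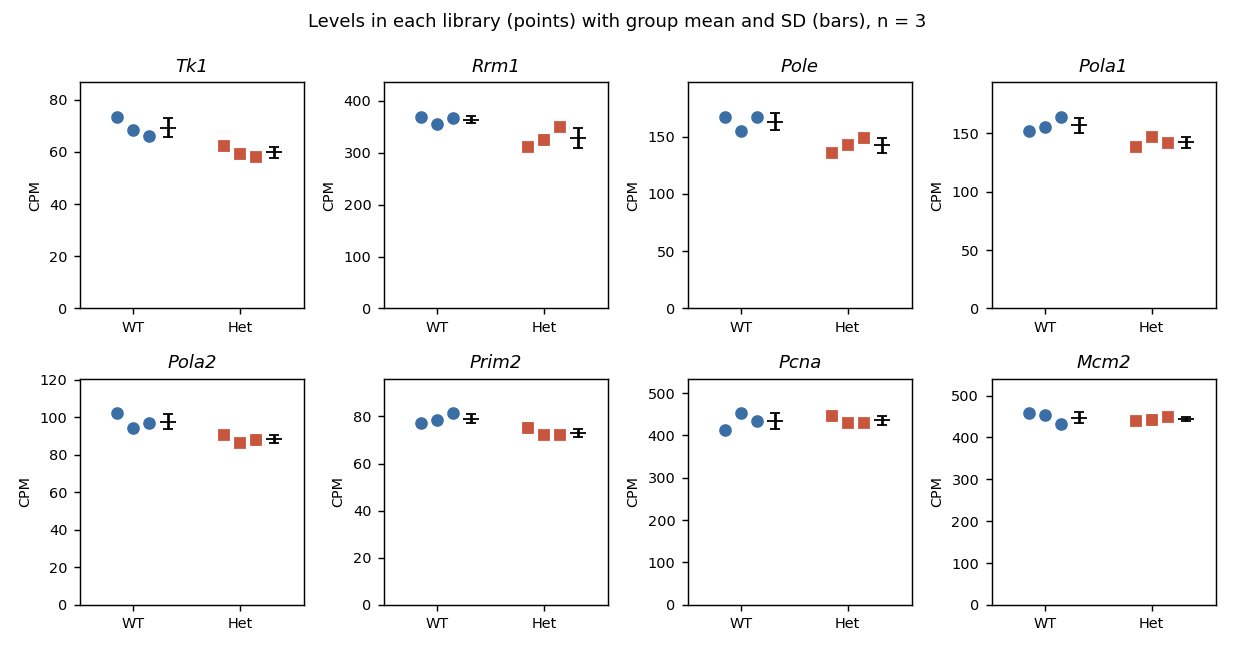
Levels in CPM of the 6 genes at an unadjusted P under 0.05 and of the S phase markers *Pcna* and *Mcm2*, each from 0, in 3 WT (circles) and 3 Het-labelled (squares) libraries, with the mean and SD of each group. The groups do not overlap in the panels of the 6 genes, where the largest relative difference is that of *Tk1* (13.8% less), and overlap for *Pcna* and *Mcm2*.

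Genes for chromatin at the fork had no member past an unadjusted *P* of 0.05. *Uhrf1*, which brings maintenance DNA methylation to new DNA, was at 783, 737 and 722 CPM in WT and 710, 706 and 701 CPM in Het-labelled libraries. Those groups did not overlap, with a log2 fold change of -0.083 (SE 0.0392, adjusted *P* = 0.618). *Chaf1a*, the large subunit of the histone chaperone CAF-1, was at 187, 177 and 172 CPM in WT and 185, 183 and 177 CPM in Het-labelled libraries, and overlapped at 0.022 (SE 0.0422, adjusted *P* = 0.909). In its transcript 48.6% of exon bases are shared with *Ubxn6* on the opposite strand. *Chaf1b*, another CAF-1 subunit, was at -0.0076 (SE 0.0417, adjusted *P* = 0.977), and *Slbp*, which binds the stem-loop of replication-dependent histone mRNAs, was at -0.023 (SE 0.0412, adjusted *P* = 0.902).

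The E-type cyclins did not separate the groups. *Ccne1* was at 127, 129 and 114 CPM in WT and 127, 122 and 121 CPM in Het-labelled libraries, with a log2 fold change of -0.0014 (SE 0.0526, 95% interval -0.12 to 0.12, adjusted *P* = 0.997). *Ccne2* was lower in level, at 32.1, 35.0 and 32.2 CPM in WT and 32.3, 32.5 and 30.5 CPM in Het-labelled libraries, and overlapped at -0.06 (SE 0.0566, adjusted *P* = 0.807).

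None of the 3 E2F factors of the set passed an unadjusted *P* of 0.05. *E2f8*, an atypical E2F that represses G1/S genes later in S phase, was at 24.1, 23.9 and 23.3 CPM in WT and 22.4, 21.6 and 22.0 CPM in Het-labelled libraries. Its groups did not overlap (-0.11, SE 0.0521, adjusted *P* = 0.621). *E2f2*, an activator, was at 18.0, 15.02 and 14.7 CPM in WT and 14.2, 15.05 and 15.1 CPM in Het-labelled libraries, and WT 1 alone stood above the rest (-0.10, SE 0.0876, adjusted *P* = 0.786). *E2f7*, the other atypical E2F, was at -0.10 (SE 0.0737, adjusted *P* = 0.734). With 1 library left out in turn, *E2f2* ranged from -0.15 (without WT 3) to -0.01005 (without WT 1), *E2f7* from -0.16 (without WT 2) to -0.041 (without WT 1) and *E2f8* from -0.12 to -0.096.

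The levels themselves spanned a wide range. Per kb of the principal transcript, *Pcna* was the highest of the set in WT, at 286 CPM per kb, followed by *Rrm2* at 214, *Uhrf1* at 208, *Mcm7* at 201 and *Mcm6* at 201 CPM per kb. Values per library of *Rrm2*, *Uhrf1*, *Mcm7* and *Mcm6* overlapped, and *Pcna* lay above these 4 in every WT library. Within each WT library *Rrm2* lay above *Mcm7* and *Mcm6*, while the other pairs among the 4 changed order between libraries. The 6 MCM2-7 genes, whose products form a ring with 1 copy of each, lay between 124 (*Mcm4*) and 201 CPM per kb. GINS genes lay lower, between 11.3 (*Gins3*) and 47.3 CPM per kb (*Gins4*). The E2F factors were the lowest, with *E2f2* at 3.35, *E2f8* at 6.43 and *E2f7* at 6.65 CPM per kb, of which the last 2 overlapped between libraries. In Het-labelled libraries *Pcna* was again the highest, at 287 CPM per kb, and *E2f2* the lowest, at 3.12 CPM per kb. Lengths come from 1 transcript per gene, so a gene that uses another transcript in the head would shift.

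**Figure D3:**
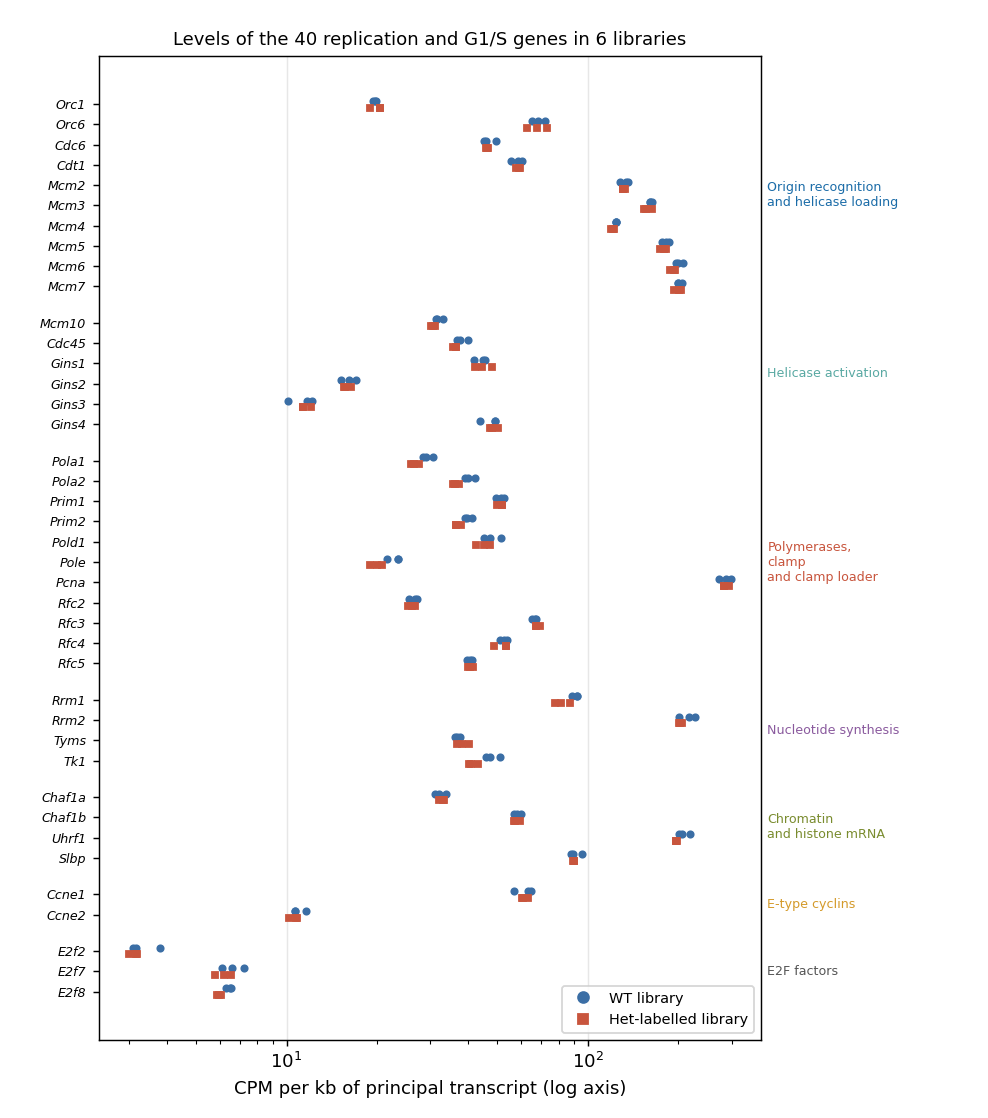
Levels of the 40 genes in CPM per kb of principal transcript on a log axis, with 1 point for each of the 3 WT (circles) and 3 Het-labelled (squares) libraries, grouped by role. The WT means span from 3.35 (*E2f2*) to 286 CPM per kb (*Pcna*), and the libraries of both groups sit close together for every gene.

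Longer transcripts tended to have lower log2 fold changes. Over the 40 genes Spearman's rho between transcript length and log2 fold change was -0.414, and over 14070 genes tested that have a principal transcript it was -0.159. These are correlations across genes that share the same 6 libraries, and genes are not independent replicates. The longest transcript of the set was that of *Pole* (7.16 kb), while *Tk1*, with the lowest fold change, had one of 1.44 kb.

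**Figure D4:**
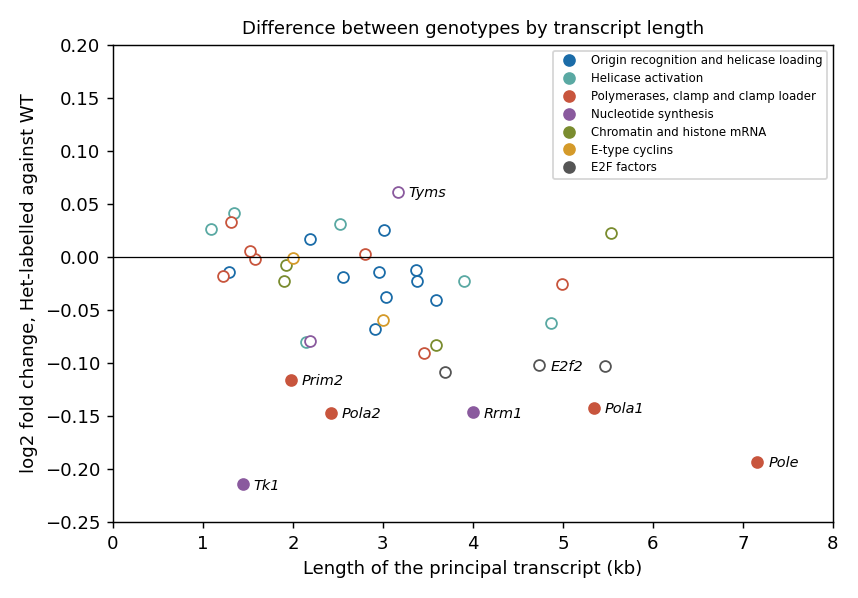
Log2 fold change of the 40 genes, Het-labelled against WT, by the length of the principal transcript in kb, coloured by role, with the 6 genes at an unadjusted P under 0.05 filled. Of the 12 genes above 3.5 kb, 11 lie below 0, beside 30 of all 40 genes (75%). Over the 40 genes rho is -0.414, and *Tk1* lies lowest at 1.44 kb.

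Replication genes outside the set were taken from a list of 48 (other origin recognition subunits, kinases and checkpoint factors of the fork, remaining polymerase subunits, RPA, flap and ligation enzymes and further nucleotide enzymes). All were tested, and at an unadjusted *P* under 0.05, 0 were higher, beside 4.34% of all genes tested, and 3 (6.25%) were lower, a share near the 4.09% of all genes tested, and the median log2 fold change was -0.019. The 3 were *Dnmt1*, the maintenance DNA methyltransferase recruited by UHRF1, at -0.15 (SE 0.0487, adjusted *P* = 0.441), *Mcm8*, a helicase of repair, at -0.12 (SE 0.047, adjusted *P* = 0.531), and *Wdhd1*, which links the helicase to polymerase alpha, at -0.091 (SE 0.0373, adjusted *P* = 0.553). *Dnmt1* was at 616, 593 and 654 CPM in WT and 545, 543 and 587 CPM in Het-labelled libraries, without overlap. The count of 3 became 6 without WT 1, and 1 without WT 3, Het 1 or Het 2 or with library size alone. Without WT 1, 4.5% of all genes tested were lower and 5.54% higher.

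Of 28 regulators of the G1/S step, with a median log2 fold change of -0.024, 1 was higher and 1 lower at an unadjusted *P* under 0.05. Each is a share of 3.57%, near the 4.34% higher and 4.09% lower of all genes tested. *Cdkn1a* was at 2.20, 1.00 and 1.22 CPM in WT and 5.35, 7.84 and 8.29 CPM in Het-labelled libraries, well apart but low in every library (log2 fold change 2.32, 95% interval 1.6 to 3.04, adjusted *P* = 0.182 in edgeR and 4.68e-14 in DESeq2). *E2f1*, an activator E2F, was at 30.5, 28.8 and 27.0 CPM in WT and 21.5, 21.2 and 22.1 CPM in Het-labelled libraries, also apart (-0.42, 95% interval -0.55 to -0.28, adjusted *P* = 0.182 in edgeR and 6.65e-05 in DESeq2). Of the other regulators named, *Trp53*, encoding P53, was at -0.015 (SE 0.0691, adjusted *P* = 0.968), *Rb1* at -0.021 (SE 0.0583, adjusted *P* = 0.941), *Ccnd1*, a G1 cyclin, at -0.03 (SE 0.0798, adjusted *P* = 0.937) and *Ccna2*, the cyclin of S phase, at -0.06 (SE 0.036, adjusted *P* = 0.681). *Ccna2* was at 299, 302 and 299 CPM in WT and 296, 283 and 283 CPM in Het-labelled libraries, without overlap, while the other 3 overlapped.

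Genes of G2 and mitosis, which follow S phase, were below 0 in 23 of 25 cases (92%, against 49.8% of all genes tested), with a median log2 fold change of -0.057. At an unadjusted *P* under 0.05, 3 (12%) were lower and 0 higher, beside 4.09% and 4.34% of all genes tested. *Top2a*, the topoisomerase of replicating and condensing chromosomes, was at 1063, 1049 and 1160 CPM in WT and 929, 921 and 960 CPM in Het-labelled libraries (-0.22, 95% interval -0.32 to -0.12, adjusted *P* = 0.309 in edgeR and 0.0171 in DESeq2). The checkpoint kinase *Bub1* was at -0.13 (SE 0.0389, adjusted *P* = 0.437), and *Aurkb*, a mitotic kinase, at -0.11 (SE 0.0395, adjusted *P* = 0.481). The count of 3 became 5 without WT 2 or without Het 1, and 1 (*Aurkb*, -0.15) with the Y-linked genes in the model, where *Bub1* was at -0.13 and *Top2a* at -0.13 and 1.52% of all genes tested were lower. Without WT 2, 6.23% of all genes tested were lower and 5.15% higher, and without Het 1, 3.41% and 3.71%. *Mki67*, with the lowest fold change of the list and a transcript of 10.1 kb, overlapped between groups (-0.25, SE 0.182, edgeR adjusted *P* = 0.752). The part of transcript length in the 92% was not tested. The difference between this list and the 40 G1/S genes was not tested.

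**Figure D5:**
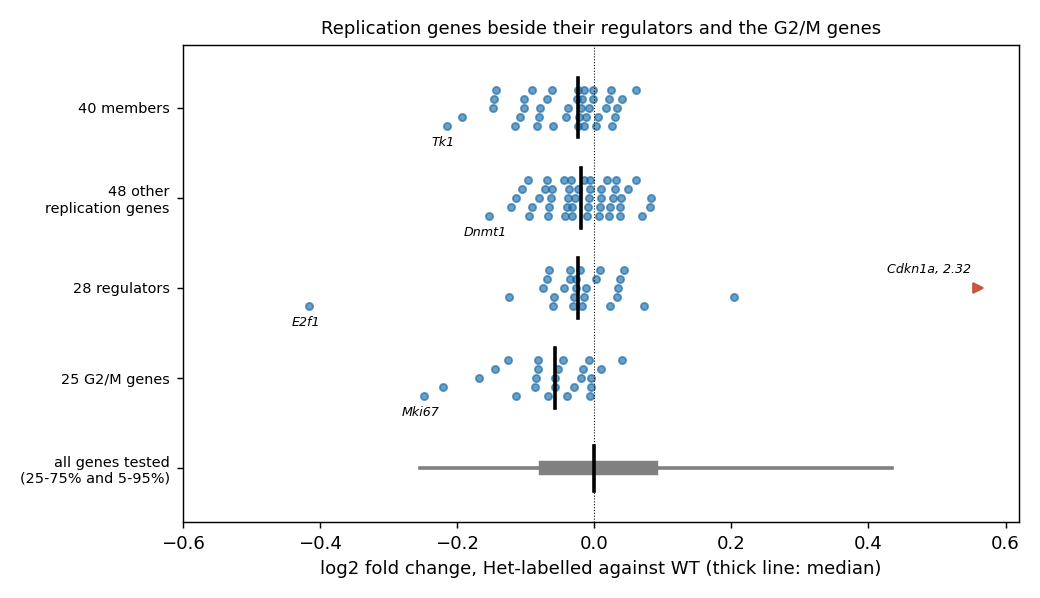
Log2 fold changes, Het-labelled against WT, of the 40 genes, of 48 other replication genes, 28 regulators and 25 G2/M genes (points, with the median as a thick line), and of all genes tested (thick bar 25 to 75%, thin bar 5 to 95%). The medians of the lists are -0.023, -0.019, -0.024 and -0.057, and *Cdkn1a* at 2.32 lies beyond the axis.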

How the data were processed

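RNAseq reads were trimmed and mapped to mm10 with STAR by the authors and counted per gene. The deposited table holds these raw counts in whole numbers, without normalization. The paper names HTSeq with Gencode M2 for the counting and the submitters' processing notes name featureCounts, and the strand setting is not given in the sources used here. All 6 columns were matched to samples by header names, which equal the sample descriptions, and 0 columns were left over. The mutant headers Het 4, Het 5 and Het 6 are replicates 1, 2 and 3 in the sample titles and are called Het 1 to Het 3 here.

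Reads counted were 36378803, 58946111 and 37349643 in WT and 42398206, 74909774 and 66455078 in Het. Genes were tested across the whole table with edgeR (version 4.0.16, R version 4.3.3): TMM normalization, filterByExpr by genotype, which left out 8837 of 24421 genes, robust quasi-likelihood dispersions, a two-sided test of Het against WT without covariates and Benjamini-Hochberg adjustment over the 15584 genes tested, with 0.05 as threshold. CPM used TMM-scaled library sizes. DESeq2 (version 1.42.0), the tool the authors used, was an alternative. Scripts were tested on simulated data.

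Levels in every library are given for genes at an unadjusted *P* under 0.05, for the highest and lowest fold change of each role, and for *Pcna* and *Mcm2*; of the 3 other lists, the genes at an unadjusted *P* under 0.05 and 6 fixed regulators are named. *Rfc3*, *Mcm4* and *Mki67*, as a count or an extreme, were named after their values were seen. The stretches of *Tk1* and *Rrm1* were also picked after their values were seen. The members, lists and this rule were chosen with earlier results of these data known. Coordinates, transcript lengths (principal protein-coding transcript) and exon overlaps come from Gencode M21, to which all 187 listed symbols were matched. The alternatives were DESeq2, DESeq2 size factors, library size alone, no filter, at least 10 counts in every library, a replicate block, a covariate made from 4 Y-linked genes (their mean log2 CPM) and each library left out.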

Additional observations from a re-analysis of the deposited data

How the results depend on the processing

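Under 13 alternatives, 0 of the 40 genes passed an adjusted *P* of 0.05 in any, and 0 were higher at an unadjusted *P* under 0.05. Libraries with the same replicate number in their titles (the column headers number mutants 4 to 6) do not come from the same animals. Their deviations from the group means correlated at 0.169, 0.0317 and 0.36. Those of differently numbered libraries correlated at -0.245 (WT 1 and Het 3) to 0.0875 (WT 1 and Het 2). The labels name no pairing, so the numbers were not taken as pairs in the main fit. For each gene the deviations within a group sum to 0, so positive correlations for some pairs force negative ones for others. The correlations only describe the pairs, and whether same-numbered libraries share a source was not tested. With the replicate block 6 genes were lower, the same 6, beside 4.14% of all genes tested, and the median log2 fold change was -0.023. The covariate made from Y-linked genes left 1 of the 6 lower genes (*Tk1*), 0 of the other replication genes and 1 of the G2/M genes (*Aurkb*) at an unadjusted *P* under 0.05, with a median of the set of -0.057; in that fit 1.52% of all genes tested were lower in place of 4.09%, and the log2 fold changes of *Pola1*, *Pola2* and *Prim2* were -0.12, -0.14 and -0.094. The summed Y-linked level was 62.8 to 120 CPM in WT and 111 to 228 CPM in Het-labelled libraries, and the cause was not tested. Library size alone gave 1 other replication gene in place of 3 and a median of the set of -0.0118. Leaving out each library in turn gave between 5 and 7 lower genes of the 40, a median of -0.0456 (without WT 3; -0.0411 without Het 1) to -0.0155 (without WT 2), between 1 (without WT 3, Het 1 or Het 2) and 6 (without WT 1) other replication genes, and between 2 and 5 (without WT 2 or Het 1) G2/M genes. Over all genes tested in these fits, 2.35% (without Het 2) to 6.23% (without WT 2) were lower. The share that was higher ran from 2.72% (without Het 2) to 5.54% (without WT 1). *Tk1* was lower at an unadjusted *P* under 0.05 in all 13 alternatives, *Pole*, *Pola1* and *Pola2* in 12, *Rrm1* in 11 and *Prim2* in 9. Genes of the set that changed sign did so without an unadjusted *P* under 0.05 in either fit. *Cdkn1a* passed an adjusted *P* of 0.05 with DESeq2 and without WT 1 (0.0198), *E2f1* with DESeq2 and with no filter (0.039), and *Top2a* with DESeq2. With 3 pools a group, the median SE of the set was 0.0447 on the log2 scale, which limits the size of difference that could be called.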
